A study of Homo sapiens with 12 samples.

Results

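The expression of 9 genes of MHC class I antigen presentation, HLA-B, HLA-C, HLA-E, B2M, TAP1, TAP2, TAPBP, PSMB8 and PSMB9, was examined by RNA-seq in the colorectal cancer cell line HCT 116. The genes were chosen by name, for their roles, with earlier results of these data known, and are 9 of the 60617 gene identifiers in the files. All of the cells lacked p53 (labelled HCT 116 p53-/-), and one line carried in addition the label RPL3 KO. Each line was treated with vehicle or with 5 nM actinomycin D (Act D) for 24 h, which gave 4 groups of 3 libraries labelled as biological replicates. Act D binds DNA and at low doses blocks mainly the synthesis of ribosomal RNA, and RPL3 encodes the ribosomal protein uL3. According to the methods of the study the second line is a subline with stable silencing of uL3, grown from HCT 116 p53-/- cells, so that each line stands for 1 population of cells.

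RPL3 itself was at 1151, 1121 and 1141 CPM (counts scaled to a common library size) in vehicle-treated HCT 116 p53-/- libraries, and at 1188, 1337 and 1202 CPM in vehicle-treated libraries labelled RPL3 KO. It did not pass the test between lines with vehicle (log2 fold change 0.13, SE 0.08, adjusted p = 0.155, edgeR quasi-likelihood test) or with Act D (0.12, SE 0.08, adjusted p = 0.187). In the deposited TPM, which divide by a transcript length estimated for each library, RPL3 was between 692 and 826 in the HCT 116 p53-/- libraries and between 523 and 641 in those labelled RPL3 KO. The second line is therefore named by its label throughout. Total counts were between 10087925 and 21138886 per library. The lines differed widely: 71.3% of 15692 genes passed between lines with vehicle. The summed level of 11 colon epithelial markers was between 1262 and 1421 TPM in HCT 116 p53-/- libraries and between 570.4 and 737 TPM in those labelled RPL3 KO. Of the 7 that were tested with vehicle, 6 were lower and 1 higher, beside 36.2% and 35.1% of all genes. The higher one was KRT18, a keratin, at 840.3 against 604.9 CPM, but at 355.4 against 362.3 TPM. Of the 4 that passed the filter on low counts in both lines, 3 were lower and 1 higher. The other genes tested passed it through HCT 116 p53-/- libraries alone, and had to differ to be tested. The intestinal factor CDX2 and the adherens junction protein CDH1 averaged 0.177 and 0.445 CPM in the line labelled RPL3 KO against 14.8 and 66.8 CPM, and VIL1, CDX1, CDH17 and GPA33 were under 0.1 TPM in every group. The sum of 9 stromal and endothelial markers was between 12.04 and 22.3 TPM in HCT 116 p53-/- libraries against 595 to 810 TPM, nearly all of the latter from VIM (mean 698.5 TPM with vehicle). Of the 6 that were tested with vehicle, 4 were higher and 2 lower, beside 35.1% and 36.2% of all genes. The lower ones were COL1A1 at 4.15 against 7.50 CPM and VWF at 0.281 against 0.706 CPM. Of the 2 that passed the filter in both lines, 1 was higher and 1 lower. The other genes tested passed it through 1 line alone. The sum of 7 leukocyte markers was between 0.7 and 1.3 TPM in HCT 116 p53-/- libraries against 2.63 to 3.41 TPM, with PTPRC, CD3E and NKG7 under 0.1 TPM in each group. LYZ, the 1 of them that was tested, was at 6.36 against 0.956 CPM with vehicle (adjusted p = 1.36e-07). The part of these marker differences in the results below was not tested. In bulk RNA, fewer cells of a type and less RNA per cell cannot be told apart.

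MHC class I molecules show fragments of a cell's own proteins to cytotoxic T cells. Proteasomes cut the proteins, the transporter TAP carries the peptides into the endoplasmic reticulum, and tapasin helps to load them onto a heavy chain paired with beta-2-microglobulin. Interferons raise many of these genes together, through IRF factors and the transactivator NLRC5, and tumour cells can lose the pathway at any of these steps.

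Of the 9 genes, 8 lie on chromosome 6 in the MHC region and B2M lies on chromosome 15 (GENCODE v44, hg38). The heavy chain genes are HLA-E at chr6:30489509-30494194 on the plus strand, HLA-C at chr6:31268749-31272130 on the minus strand and HLA-B at chr6:31353872-31367067 on the minus strand. TAP2 (chr6:32821833-32838739, minus), PSMB8 (chr6:32840717-32844679, minus), PSMB9 (chr6:32844136-32859851, plus) and TAP1 (chr6:32845209-32853816, minus) lie side by side, and TAPBP is at chr6:33299694-33314284 on the minus strand. B2M is at chr15:44711358-44718851 on the plus strand. The annotated span of PSMB9 covers 8608 bases of TAP1, which is the whole of it, and 544 bases of PSMB8, in both cases on the other strand. The sources used here do not state whether the counting used strand, so that the counts of these 3 genes are less certain. TAP2 shares 16907 bases with a read-through locus on its own strand, to which RSEM assigned between 0 and 146 counts.

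RefSeq (GRCh38.p14) gave windows around the start site, from 250 bases before it, for 8 of the 9 genes, with HLA-E named here without one. The 250 bases before the start of HLA-B and HLA-C are shown because these neighbours of like sequence differed in expression between lines by unlike amounts, and those of B2M and TAP1 because they moved in opposite directions. All 4 are on the strand of the gene, 5′ to 3′, and in GENCODE v44 the annotated span of each gene begins farther upstream and overlaps its window. Capitals mark, on either strand, an IRF core (AANNGAAA), the class I kB element (GGGGATTCC), a general kB match (GGGNNTTTC), a CRE-like match (TGACGC) and CCAAT.
HLA-B, chr6:31357180-31357429, minus strand: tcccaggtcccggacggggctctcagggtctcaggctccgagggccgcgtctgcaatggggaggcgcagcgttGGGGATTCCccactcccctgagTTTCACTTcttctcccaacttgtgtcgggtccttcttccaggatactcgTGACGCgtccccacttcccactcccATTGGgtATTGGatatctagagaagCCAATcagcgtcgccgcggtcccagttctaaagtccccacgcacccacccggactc
HLA-C, chr6:31272093-31272342, minus strand: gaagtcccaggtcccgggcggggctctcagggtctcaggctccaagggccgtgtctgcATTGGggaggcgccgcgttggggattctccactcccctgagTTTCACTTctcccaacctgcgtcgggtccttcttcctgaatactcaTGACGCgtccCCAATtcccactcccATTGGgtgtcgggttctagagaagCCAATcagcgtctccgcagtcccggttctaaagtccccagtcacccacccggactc
B2M, chr15:44711267-44711516, plus strand: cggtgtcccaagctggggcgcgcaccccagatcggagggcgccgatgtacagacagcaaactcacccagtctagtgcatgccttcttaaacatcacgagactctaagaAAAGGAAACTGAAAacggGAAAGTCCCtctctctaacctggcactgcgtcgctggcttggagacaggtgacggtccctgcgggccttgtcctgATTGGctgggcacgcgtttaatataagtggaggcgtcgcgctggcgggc
TAP1, chr6:32853705-32853954, minus strand: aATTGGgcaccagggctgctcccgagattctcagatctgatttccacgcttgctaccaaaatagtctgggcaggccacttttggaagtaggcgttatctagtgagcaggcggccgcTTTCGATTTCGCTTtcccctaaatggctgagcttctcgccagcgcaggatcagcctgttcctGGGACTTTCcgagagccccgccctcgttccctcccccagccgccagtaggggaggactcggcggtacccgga

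The windows of HLA-B and HLA-C were identical at 226 of 246 aligned bases (91.9%). HLA-B held the class I kB letters, first base at -177 from the start, which are found in 0.285% of 35116 RefSeq windows of 300 bases (250 before and 50 after the start). HLA-C had none, nor did any other of the 8 genes. PSMB8 and TAP1 have a second start site, so that the 8 genes have 10 windows. The IRF core was in 7 of the 10 windows and in 22.8% of all windows: at -155 in HLA-B, at -151 in HLA-C, at -142 and -136 in B2M (overlapping matches), and at -134 and -128 in TAP1 (also overlapping). PSMB8 had it at its second start site alone, the second window of TAP1 lacked it, and PSMB9 had no such match. The general kB letters were in B2M (-124), TAP1 (-72) and TAPBP (-56) and in 4.78% of all windows, the CRE-like letters in 3 of the 10 windows and 9.14%, and CCAAT in 5 of the 10 and 34.6%. TAP1 and PSMB9 are divergent: 487 bases lie between their start sites, so that their windows overlap. These matches are letters only, and binding was not measured. The IRF letters, the kB letters and the window were changed after the hits of a first search were seen. The shares above are therefore no independent comparison. The first IRF letters, GAANNGAAA, were in 3 of the 8 genes and 6.56% of all windows of 250 bases.

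In deposited TPM, which compare genes per length, B2M ranked first of the 9 genes in each group, with means of 197 TPM in vehicle-treated HCT 116 p53-/- libraries, 226 TPM with Act D, 561 TPM in vehicle-treated libraries labelled RPL3 KO and 633 TPM in those with Act D. HLA-C was next in each group, with means of 106, 121, 61.5 and 60.9 TPM. HLA-B followed in HCT 116 p53-/- cells at 87.8 TPM with vehicle and 114 TPM with Act D, and its libraries overlapped those of HLA-C with Act D but not with vehicle. In libraries labelled RPL3 KO, HLA-B was at 11.6 TPM with vehicle, after HLA-E (15.7) and TAPBP (12.48), and these 3 neighbours overlapped. PSMB9 and PSMB8 were the lowest 2 in each group, between 1.17 and 1.70 TPM for PSMB9 and between 0.187 and 0.803 TPM for PSMB8. PSMB8 lay below PSMB9 without overlap in each group except Act D-treated libraries labelled RPL3 KO. These ranks depend on the transcript lengths used. In the 1 library deposited per transcript (vehicle, HCT 116 p53-/-), 45.5% and 34.7% of B2M counts were assigned to transcripts of 604 and 580 bases. In CPM, which do not divide by length, HLA-C averaged 194.1 and B2M 120.9 in vehicle-treated HCT 116 p53-/- libraries.

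All 9 genes were tested, since all passed the filter on low counts, PSMB8 doing so through the libraries labelled RPL3 KO, where it is higher. Between lines with vehicle, B2M, TAPBP, HLA-E and PSMB8 were higher in libraries labelled RPL3 KO, HLA-B, TAP1 and HLA-C were lower, and TAP2 and PSMB9 did not pass (adjusted p under 0.05, edgeR quasi-likelihood test). That is 7 of 9 genes called, beside 71.3% of all genes tested (35.1% higher and 36.2% lower), and a share near that background. PSMB8 had to differ to be tested, and without it the count was 6 of 8. The groups did not overlap for the same number, 7 of 9, beside 72.5% of all genes. With Act D in both lines, B2M, TAPBP and PSMB8 were higher and HLA-B, TAP1, HLA-C and TAP2 lower, again 7 of 9 (6 of 8 without PSMB8), beside 70.4% of all genes (35.1% higher and 35.3% lower). The groups did not overlap for 6 of the 9, beside 74.1%. The median log2 difference of the 9 genes was 0.52 with vehicle and 0.07 with Act D, beside -0.02 over all genes in both. The calls thus lay on both sides of 0, with the light chain and the tapasin gene up and the most strongly changed heavy chain down.

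**Figure D1:**
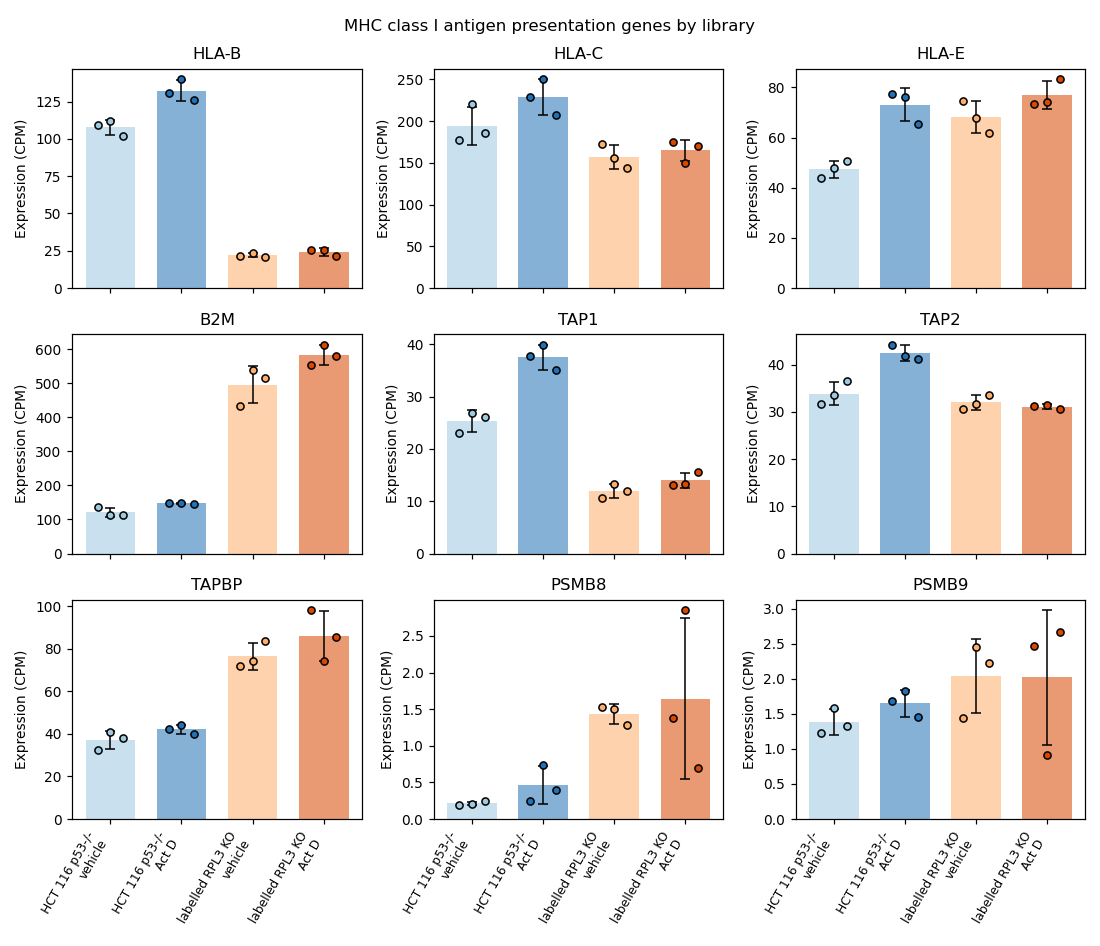
Expression in CPM of the 9 genes (1 panel a gene) in the 4 groups of 3 libraries. Points are libraries, bars are group means and whiskers are 1 SD. B2M and TAPBP are higher and HLA-B and TAP1 lower in all 6 libraries labelled RPL3 KO, while the Act D-treated libraries labelled RPL3 KO scatter from 0.696 to 2.85 CPM for PSMB8.

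HLA-B, a classical heavy chain that presents peptides to cytotoxic T cells, showed the largest fall among the 9 genes. It was at 109, 112 and 102 CPM in vehicle-treated HCT 116 p53-/- libraries and at 130.5, 140.1 and 126 CPM with Act D. In libraries labelled RPL3 KO it was at 21.8, 23.8 and 20.9 CPM with vehicle and at 25.8, 25.2 and 21.2 CPM with Act D, so that the lines were far apart in both treatments. The level was 4.84-fold lower with vehicle (log2 fold change -2.28, SE 0.09, adjusted p = 3.53e-13) and 5.48-fold lower with Act D (-2.45, SE 0.10, adjusted p = 2.28e-13). With Act D, HLA-B rose in HCT 116 p53-/- cells (log2 fold change 0.30, SE 0.09, adjusted p = 0.0214), and was at 0.12 (SE 0.10, adjusted p = 0.488) in those labelled RPL3 KO. RSEM's posterior standard deviation, the part of the error that comes from reads shared between genes, was between 0.183% and 0.465% of the HLA-B count in the 11 libraries that give it, against a spread between replicates of 4.88% to 10.3%. HLA reads were counted against reference transcripts, and reads that fit none of them are not in this value. Whether such reads differed between lines was not tested.

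HLA-C, the other classical heavy chain in the set and a ligand of natural killer cell receptors, differed less. It was at 177, 220.1 and 185 CPM and, with Act D, at 229, 250.4 and 208 CPM in HCT 116 p53-/- libraries, against 172, 155 and 144 CPM and, with Act D, 175, 150.2 and 169.7 CPM in those labelled RPL3 KO. The highest library labelled RPL3 KO lay under the lowest HCT 116 p53-/- library in each treatment. The log2 difference was -0.31 with vehicle (SE 0.10, adjusted p = 0.0123) and -0.47 with Act D (SE 0.10, adjusted p = 0.00048). The vehicle call was lost without replicate 2 of vehicle-treated HCT 116 p53-/- cells (adjusted p = 0.0981) and without replicate 3 of the vehicle-treated line labelled RPL3 KO (adjusted p = 0.0676). The response of HLA-C to Act D was 0.24 (SE 0.10, adjusted p = 0.114) in HCT 116 p53-/- cells and 0.07 (SE 0.10, adjusted p = 0.724) in those labelled RPL3 KO. It passed in HCT 116 p53-/- cells without vehicle replicate 2 (0.34, adjusted p = 0.0444).

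HLA-E, a heavy chain of little variation between people that signals to natural killer cells, was the heavy chain of the set with the largest response to Act D. In HCT 116 p53-/- libraries it was at 43.9, 47.7 and 50.5 CPM with vehicle and at 77.5, 76.2 and 65.5 CPM with Act D, without overlap (1.54-fold, log2 fold change 0.62, SE 0.10, adjusted p = 0.000201). In those labelled RPL3 KO it was at 74.6, 68.0 and 61.9 CPM with vehicle and at 73.3, 74.2 and 83.4 CPM with Act D, with overlap (log2 fold change 0.17, SE 0.10, adjusted p = 0.277). Between lines it was higher in libraries labelled RPL3 KO with vehicle (0.52, SE 0.10, adjusted p = 0.000109), and with Act D the difference was 0.07 (SE 0.10, adjusted p = 0.518). In TPM the vehicle-treated libraries of the lines overlapped, at 14.5 to 16.4 against 13.5 to 19.0 TPM.

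The 3 heavy chain genes were also summed before the fit, which removes the division of shared reads among them. The sum was lower in libraries labelled RPL3 KO with vehicle (log2 fold change -0.50, SE 0.09, adjusted p = 7.56e-05) and with Act D (-0.71, SE 0.09, adjusted p = 1.49e-06), and it rose with Act D in HCT 116 p53-/- cells (0.32, SE 0.09, adjusted p = 0.0191). The latter call was lost with library size alone (0.22, adjusted p = 0.183) and without any 1 of 4 libraries, vehicle replicate 1 or 3 or Act D replicate 1 or 2 (adjusted p from 0.0675 to 0.104). This sum covers these 3 genes and is no measure of all class I heavy chains. HLA-F, a heavy chain outside the set, was at 6.61 CPM in HCT 116 p53-/- cells against 0.901 CPM with vehicle, and passed the low-count filter through the former. With HLA-F added, the difference of the sum between lines was -0.52 (adjusted p = 4.86e-05) with vehicle and -0.73 (adjusted p = 1.04e-06) with Act D.

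B2M encodes beta-2-microglobulin, the light chain that pairs with class I heavy chains. Its level was 135, 114 and 114 CPM in vehicle-treated HCT 116 p53-/- libraries and 148, 148 and 147 CPM with Act D. In libraries labelled RPL3 KO it was 434, 539.6 and 515 CPM with vehicle and 554, 614 and 581 CPM with Act D, well above all 6 HCT 116 p53-/- libraries. The difference was 4.11-fold with vehicle (log2 fold change 2.04, SE 0.10, adjusted p = 2.27e-12) and 3.95-fold with Act D (1.98, SE 0.10, adjusted p = 4.18e-12). In CPM, the B2M level with Act D did not overlap that with vehicle in either line. The log2 change was 0.29 (SE 0.09, adjusted p = 0.0404) in HCT 116 p53-/- cells and 0.23 (SE 0.09, adjusted p = 0.117) in those labelled RPL3 KO, and the difference between these responses was -0.06 (SE 0.13, adjusted p = 0.858). In TPM the treatments overlapped in both lines. Vehicle against Act D was 176.4 to 231.4 against 211.2 to 235.2 TPM in HCT 116 p53-/- libraries. It was 533.1 to 596.6 against 584.5 to 682.4 TPM in those labelled RPL3 KO.

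The ratio of B2M to the 3 heavy chain genes, in TPM within a library, was 1.11, 0.783 and 0.955 in vehicle-treated HCT 116 p53-/- libraries, and 5.03, 7.12 and 7.28 in those labelled RPL3 KO. With Act D it was 0.86, 0.837 and 0.964 against 6.45, 7.35 and 6.85. The groups of the lines were far apart in each treatment, with a log2 difference of 2.76 with vehicle and 2.96 with Act D. An exact two-sided permutation test of 3 against 3 libraries cannot go below p = 0.1, which was reached for both (0.229 after adjustment over 16 such ratio tests). Act D against vehicle gave a log2 difference of -0.09 (exact permutation p = 0.7) in HCT 116 p53-/- cells and 0.11 (exact permutation p = 0.8) in those labelled RPL3 KO, with overlap in both. With HLA-F in the denominator the differences between lines were 2.79 and 2.98, and other heavy chains are not in it. The level of the ratio also depends on the B2M transcript length used.

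**Figure D2:**
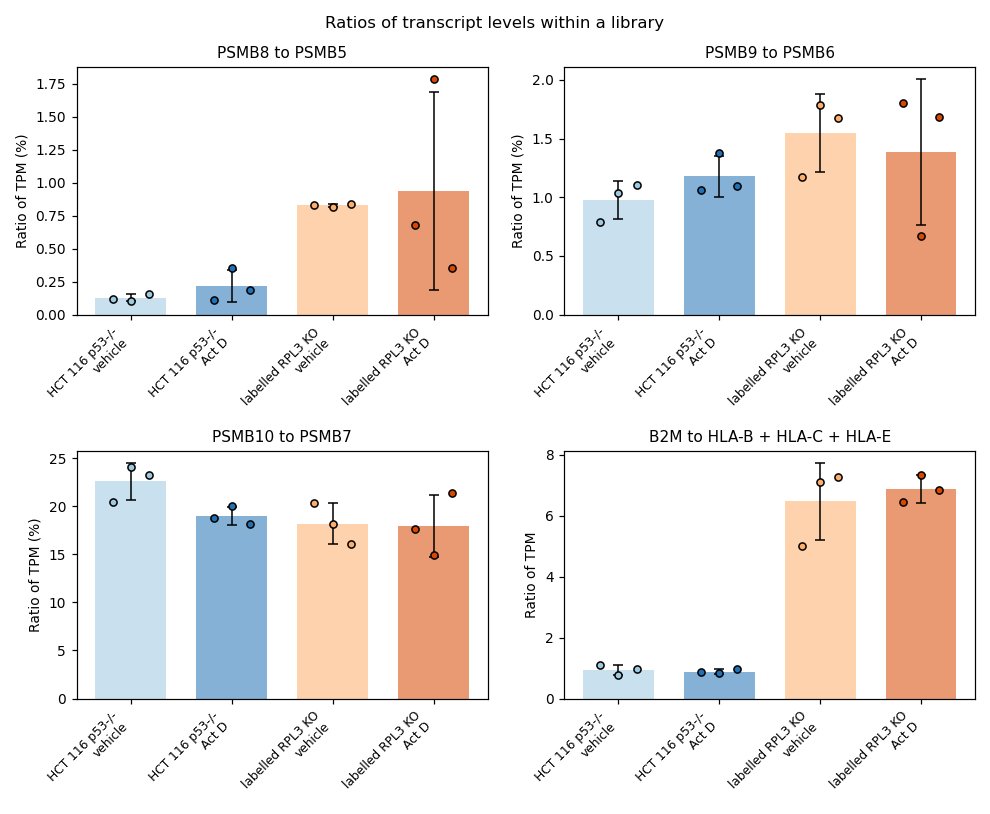
Ratios of deposited TPM within each library, in percent for the 3 proteasome subunit pairs and as a plain ratio for B2M to the sum of HLA-B, HLA-C and HLA-E. Points are libraries, bars are means of 3 libraries and whiskers are 1 SD. The B2M ratio is between 0.783 and 1.11 in the 6 HCT 116 p53-/- libraries and between 5.03 and 7.35 in the 6 labelled RPL3 KO.

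TAP1 and TAP2 encode both chains of the peptide transporter. TAP1 was at 23.0, 26.9 and 26.0 CPM with vehicle and at 37.7, 39.9 and 35.1 CPM with Act D in HCT 116 p53-/- libraries. In those labelled RPL3 KO it was at 10.7, 13.2 and 11.9 CPM and, with Act D, at 13.1, 13.2 and 15.7 CPM, below all 6 of the others. The level was 2.11-fold lower with vehicle (log2 fold change -1.07, SE 0.12, adjusted p = 1.74e-07) and 2.69-fold lower with Act D (-1.43, SE 0.12, adjusted p = 5.38e-09). TAP1 rose 1.48-fold with Act D in HCT 116 p53-/- cells (0.57, SE 0.11, adjusted p = 0.00121), and its change in those labelled RPL3 KO was 0.21 (SE 0.12, adjusted p = 0.302).

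TAP2 was at 31.6, 33.5 and 36.4 CPM with vehicle and 44.2, 41.9 and 41.2 CPM with Act D in HCT 116 p53-/- libraries, without overlap. In libraries labelled RPL3 KO it was at 30.7, 31.6 and 33.6 CPM with vehicle and at 31.1, 31.5 and 30.5 CPM with Act D, with overlap between the treatments. The log2 difference between lines was -0.08 (SE 0.09, adjusted p = 0.424) with vehicle and -0.45 (SE 0.09, adjusted p = 0.000227) with Act D. With library size alone as the scaling, the vehicle difference passed as well (-0.32, adjusted p = 0.00716), where the median of all genes moved to -0.26. The rise with Act D in HCT 116 p53-/- cells was 0.33 (SE 0.09, adjusted p = 0.014), and the change in those labelled RPL3 KO was -0.04 (SE 0.09, adjusted p = 0.824). The difference between the responses did not pass (-0.37, SE 0.13, adjusted p = 0.0898). The posterior standard deviation of TAP2 was 2.37% to 5.13% of its count, the widest of the 9 genes, and with the counts of the read-through locus added its difference between lines was -0.14 (adjusted p = 0.161) with vehicle and -0.55 (adjusted p = 2.16e-05) with Act D. With the estimated transcript length of each library in the fit, its Act D difference no longer passed (-0.50, adjusted p = 0.163), and its TPM ran from 3.23 to 10.9 among the 3 vehicle-treated libraries labelled RPL3 KO.

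TAPBP encodes tapasin, which bridges TAP and the heavy chain. It was at 32.4, 41.0 and 38.1 CPM with vehicle and at 42.5, 44.02 and 39.8 CPM with Act D in HCT 116 p53-/- libraries, and at 71.7, 74.0 and 83.6 CPM and 98.2, 74.5 and 85.5 CPM in those labelled RPL3 KO. The lines did not overlap, and TAPBP was 2.06-fold higher with vehicle (log2 fold change 1.04, SE 0.11, adjusted p = 1.37e-07) and 2.05-fold higher with Act D (1.03, SE 0.11, adjusted p = 1.76e-07). Its change with Act D was 0.18 (SE 0.11, adjusted p = 0.29) in HCT 116 p53-/- cells and 0.17 (SE 0.11, adjusted p = 0.336) in those labelled RPL3 KO.

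PSMB8 and PSMB9 encode catalytic subunits that replace PSMB5 and PSMB6 in the immunoproteasome, the form that interferon gamma induces. PSMB8 had 3, 3 and 4 counts in vehicle-treated HCT 116 p53-/- libraries and 4, 11 and 5 with Act D, against 19, 30 and 19 and, with Act D, 19, 25 and 6 in those labelled RPL3 KO. In CPM these are 0.194, 0.207 and 0.241, then 0.249, 0.744 and 0.402, against 1.53, 1.501 and 1.28, then 1.38, 2.85 and 0.696. The groups of the lines did not overlap with vehicle (log2 difference 2.69, SE 0.55). Since PSMB8 passed the low-count filter through the libraries labelled RPL3 KO alone, its filtered test (adjusted p = 0.000268) is no independent support. In the fit without that filter the difference was 2.70 (adjusted p = 4.33e-06), and over the 22 alternatives the adjusted p ran up to 0.00189. With Act D the groups overlapped, and the difference was 1.79 (SE 0.50, adjusted p = 0.00415), or 1.76 without the filter (adjusted p = 0.00192). The filtered Act D call was lost without replicate 2 of that line (1.17, adjusted p = 0.0563). At these counts, fold changes are uncertain, and the change with Act D was 1.08 (SE 0.64, adjusted p = 0.267) in HCT 116 p53-/- cells and 0.18 (SE 0.44, adjusted p = 0.849) in those labelled RPL3 KO.

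PSMB9 had between 8 and 49 counts in the 12 libraries and passed in no comparison. It was at 1.23, 1.58 and 1.33 CPM with vehicle and at 1.68, 1.83 and 1.45 CPM with Act D in HCT 116 p53-/- libraries, and at 1.45, 2.45 and 2.23 CPM and 2.47, 0.914 and 2.67 CPM in those labelled RPL3 KO. The log2 difference between lines was 0.58 (SE 0.35, adjusted p = 0.147) with vehicle and 0.30 (SE 0.36, adjusted p = 0.469) with Act D. Replicate 2 of the Act D-treated line labelled RPL3 KO held the highest PSMB8 level and the lowest PSMB9 level in CPM of the 12 libraries, from 25 and 8 counts.

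In TPM, PSMB8 was between 0.106% and 0.157% of PSMB5 in vehicle-treated HCT 116 p53-/- libraries, and 0.832%, 0.816% and 0.839% in those labelled RPL3 KO, a log2 difference of 2.71 without overlap (exact permutation p = 0.1, the smallest that 3 against 3 allow). That difference was 1.69 with posterior mean TPM and 1.57 with a pseudocount of 0.5 TPM. PSMB9 was between 0.791% and 1.10% of PSMB6, against 1.17% to 1.79% (0.65, exact permutation p = 0.1). PSMB10, the third immunoproteasome subunit, was between 20.4% and 24.0% of PSMB7 against 16.1% to 20.3% (-0.32, exact permutation p = 0.1). All 3 have an adjusted p of 0.229. These 3 differences were with vehicle. With Act D the lines overlapped for PSMB9 to PSMB6 (0.12, exact permutation p = 0.9) and for PSMB10 to PSMB7 (-0.09, exact permutation p = 0.7). PSMB8 to PSMB5 was then at 1.95 (exact permutation p = 0.1), where the nearest libraries of the lines were at 0.354% and 0.353%. In the fit of counts, which does not divide by length, the constitutive subunit PSMB5 fell with vehicle by 0.25 on the log2 scale (adjusted p = 0.0248). There PSMB7 rose by 0.32 (adjusted p = 0.0124), PSMB6 was at -0.12 (adjusted p = 0.259) and PSMB10 was at 0.23 (adjusted p = 0.178). In mean TPM each was lower in the line labelled RPL3 KO with vehicle. PSMB5 was at 89.3 against 146.7, PSMB6 at 80.8 against 125.1, PSMB7 at 98.0 against 112.1 and PSMB10 at 17.8 against 25.1 TPM.

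In HCT 116 p53-/- cells, Act D against vehicle raised 5 of the 9 genes, HLA-E, TAP1, TAP2, HLA-B and B2M, and lowered none. Beside this, 18.7% of all genes tested passed (7.59% higher and 11.1% lower). The levels in CPM did not overlap for 6 of the 9 (these 5 and PSMB8), beside 38.2% of all genes, and the median log2 change of the 9 was 0.30 against 0.02 over all genes. HLA-E and TAP1 passed under each of the 22 alternatives run, with adjusted p of at most 0.0024 and 0.0226. The other 3 did not: HLA-B was lost under 6 of 22, TAP2 under 5 of 23 and B2M under 10 of 22, with adjusted p up to 0.208, 0.317 and 0.22. Those 3 were at adjusted p = 0.208, 0.125 and 0.22 with library size alone as the scaling.

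In the line labelled RPL3 KO, Act D against vehicle changed 0 of the 9 genes past the threshold by edgeR's quasi-likelihood test, beside 11.9% of all genes (3.51% higher and 8.4% lower), with 1 (B2M) at an unadjusted p under 0.05. DESeq2 and the likelihood-ratio test of edgeR called 0 as well, and upper quartile scaling called B2M (0.30, adjusted p = 0.0442). B2M was also the 1 gene of 9 whose levels in CPM did not overlap, beside 27.6% of all genes. The median log2 change of the 9 was 0.17, beside 0.03.

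Since a change that passes in one line and not in the other is no difference between them, the responses were compared in an interaction term. None of the 9 passed by the quasi-likelihood test, beside 6.53% of all genes (3.3% higher and 3.23% lower), and 3 (HLA-E, TAP1 and TAP2) were at an unadjusted p under 0.05. HLA-E had the difference nearest to the threshold: its response in the line labelled RPL3 KO minus that in HCT 116 p53-/- cells was -0.45 on the log2 scale (SE 0.14, adjusted p = 0.0589), and it passed with DESeq2 (-0.46, adjusted p = 0.0281, with an adjusted p given for 7 of the 9), with the likelihood-ratio test (adjusted p = 0.0331) and without the low-count filter (adjusted p = 0.0347). Over its alternatives the adjusted p ran from 0.0281 to 0.149. TAP1 was at -0.35 (SE 0.16, adjusted p = 0.225). These comparisons share their vehicle-treated and Act D-treated libraries with the ones above.

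**Figure D3:**
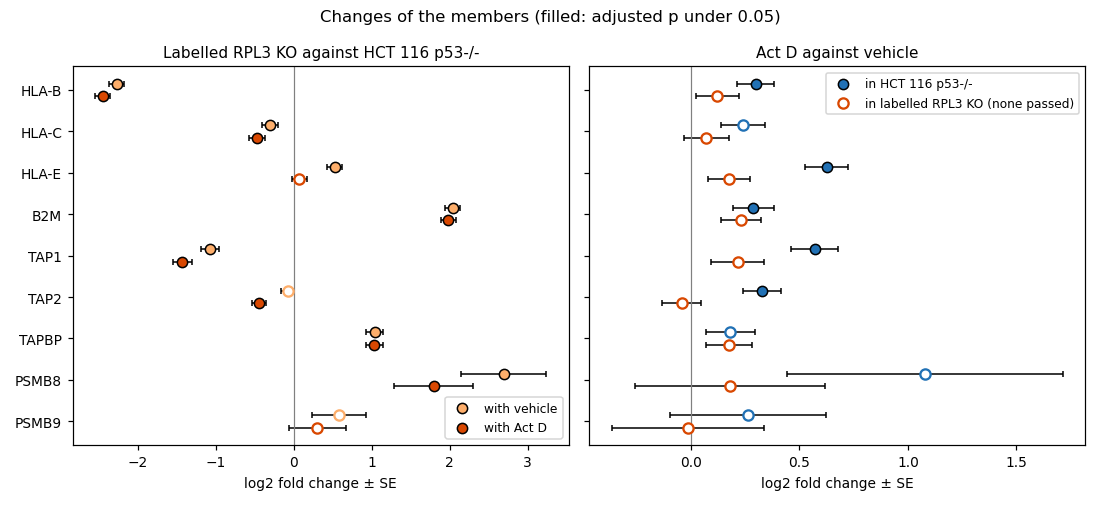
Log2 fold changes with SE (whiskers) of the 9 genes from the edgeR fit. The left panel shows the line labelled RPL3 KO against HCT 116 p53-/- with vehicle and with Act D, the right panel Act D against vehicle in each line, and filled points have an adjusted p under 0.05. HLA-B lies at -2.28 and -2.45 and B2M at 2.04 and 1.98 in the left panel, and all filled points of the right panel belong to HCT 116 p53-/- cells.

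Other genes of the pathway were read from lists. Their counts between lines stand beside 35.1% of all genes higher and 36.2% lower with vehicle (71.3% in either direction), and 35.1% and 35.3% with Act D (70.4%). A gene near 0 in 1 line passed the low-count filter through the other, and had to differ to be tested. Of 7 further peptide loading and trimming genes, 6 were higher in the line labelled RPL3 KO with vehicle and 7 with Act D, beside 35.1% of all genes in each, and none was lower. Of the 6 that passed the filter in both lines, 5 and 6 were higher. TAPBPL, a tapasin relative that edits the peptide cargo, was at 8.25 CPM against 0.0619 CPM (0 to 2 counts a library) with vehicle. ERAP1, which trims peptides in the endoplasmic reticulum, was at 23.6 against 7.85 CPM (log2 fold change 1.60, adjusted p = 1.29e-08). The median of these 7 was 0.61, beside -0.02 over all genes. These tests use counts without transcript length. In mean TPM with vehicle, PDIA3 (88.0 against 115.3) and LNPEP (1.89 against 2.24) were lower in the line labelled RPL3 KO. CALR (307.4 against 304.9) and CANX (179.1 against 164.5) overlapped between lines. ERAP1 (2.86 against 1.59), ERAP2 (0.633 against 0.353) and TAPBPL (4.03 against 0.137) were higher. With Act D, PDIA3 was at 88.6 against 125.5 TPM. Of 6 cytosolic peptidases, which trim or destroy peptides before transport, 5 were lower and 1 higher with vehicle, beside 36.2% and 35.1% of all genes, with NPEPPS at -1.64 (adjusted p = 8.18e-10) and LAP3 at 36.2 against 72.4 CPM (adjusted p = 3.92e-09). With Act D, 4 were lower and 1 higher, beside 35.3% and 35.1%.

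Among 5 further immunoproteasome and proteasome activator genes, 2 were higher and 1 lower in each treatment, a share called that is no higher than the 71.3% and 70.4% of all genes, with PSME2 at 0.61 (adjusted p = 6.2e-06) and PSME1 at 0.42 (adjusted p = 0.000867) with vehicle. In mean TPM PSME2 was at 57.2 against 52.7 and PSME1 at 46.8 against 50.0, so that PSME1 was not higher per length. Of 10 class I-like genes and stress ligands, 9 were tested, and 3 were higher and 5 lower in each treatment, beside the same 71.3% and 70.4%. Of the 7 that passed the filter in both lines, 2 were higher and 4 lower. FCGRT, the neonatal Fc receptor chain that also pairs with beta-2-microglobulin, was at 27.7 against 0.448 CPM with vehicle, from 366 to 553 counts against 4 to 10, and passed the filter through the line labelled RPL3 KO alone. MICB, a ligand of the activating receptor NKG2D, was at 1.04 against 22.8 CPM (adjusted p = 4.47e-13). With Act D in HCT 116 p53-/- cells 3 of these 9 rose, beside 7.59% of all genes, among them ULBP2, another such ligand (0.65, adjusted p = 0.00949), and MR1, which presents vitamin metabolites (0.51, adjusted p = 0.0497). In the line labelled RPL3 KO 1 of the 9 rose with Act D, beside 3.51% of all genes. It was ULBP3 (0.41, adjusted p = 0.0143), which also rose in HCT 116 p53-/- cells (0.50, adjusted p = 0.00171).

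Of 12 transcription regulators of class I genes, 5 were higher and 3 lower with vehicle in the line labelled RPL3 KO, a share called near the 71.3% of all genes (35.1% higher and 36.2% lower). IRF1, an activator of class I genes, was at 35.3 against 9.03 CPM (log2 fold change 1.96, adjusted p = 5.16e-11), and IRF2, which shares its binding motif and can act against it, was at 8.58 against 2.22 CPM (1.93, adjusted p = 1.82e-05). NLRC5, the class I transactivator, was at 2.05 against 4.24 CPM (-1.05, adjusted p = 0.000808). With Act D, 4 were higher and 4 lower, beside 70.4%, and NLRC5 was at -0.72 (adjusted p = 0.0155). Act D lowered NFKB1, a subunit of NF-kB, in both lines, with log2 changes of -0.45 (adjusted p = 0.0125) in HCT 116 p53-/- cells and -0.71 (adjusted p = 0.000704) in those labelled RPL3 KO.

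Of 10 interferon receptors and signalling genes, 1 was higher and 6 lower with vehicle in the line labelled RPL3 KO, 7 of 10 called beside 71.3% of all genes. With Act D 1 was higher and 9 lower, beside 70.4%. With vehicle IFNGR2, a chain of the interferon gamma receptor, was at 65.3 against 27.9 CPM (log2 fold change 1.23, adjusted p = 1.05e-08), and JAK2, a kinase of that receptor, was at 4.20 against 8.37 CPM (adjusted p = 6.53e-05). With Act D in HCT 116 p53-/- cells SOCS1, an inhibitor of this signalling, rose (1.03, adjusted p = 0.0274), as did IFNGR1 (0.46, adjusted p = 0.0105). Of 10 MHC class II genes, 6 were tested and 4 were lower in each treatment, beside 36.2% and 35.3% of all genes. Of the 2 that passed the filter in both lines 1 was lower. The other 4 passed it through HCT 116 p53-/- libraries alone, with HLA-DRB1 at 0.279 against 2.53 CPM and HLA-DQB1 at 0.0559 against 1.84 CPM with vehicle. Of 5 inhibitory ligands 3 were tested, and CD47, a signal against uptake by phagocytes, was higher with vehicle (1.61, adjusted p = 1.23e-10).

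**Figure D4:**
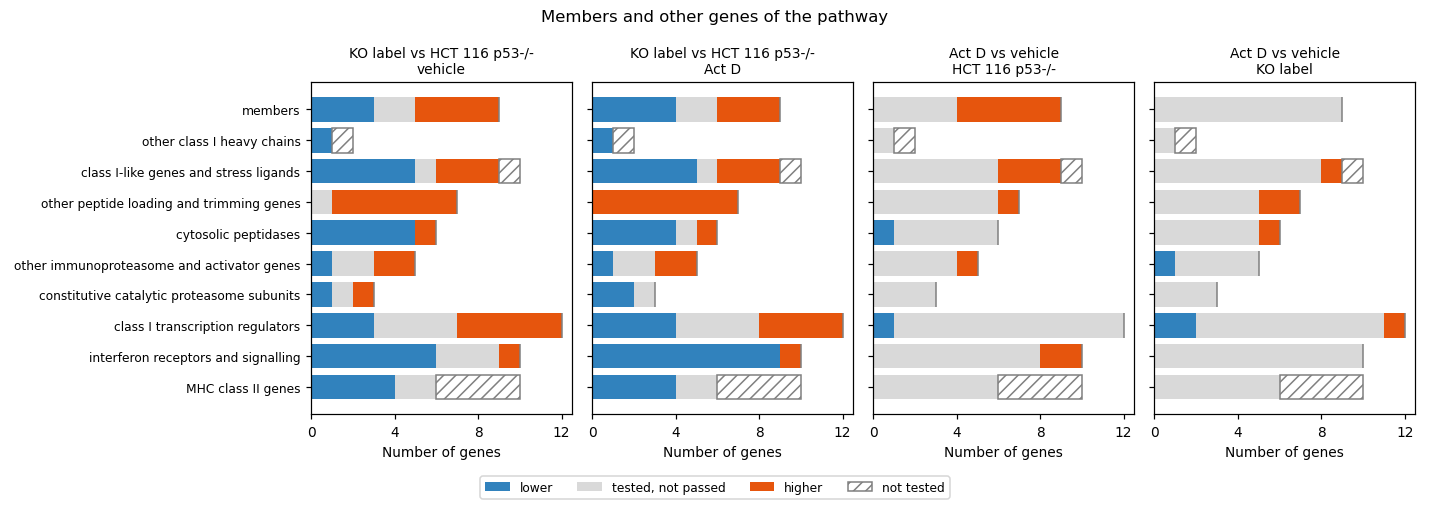
Number of genes of each list that were lower, higher or not past the threshold (adjusted p under 0.05), or not tested for low counts, in 4 comparisons (panels). The further peptide loading and trimming genes are higher in 6 of 7 cases with vehicle and 7 of 7 with Act D between lines, against 35.1% of all genes higher in each. These tests use counts, and in mean TPM PDIA3 was lower in the line labelled RPL3 KO in both treatments.

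The genes most like the mean profile of the 9, by Pearson's r over the 12 libraries among 10804 genes outside the lists with at least 5 CPM, were SERTAD1 (0.959), ARC (0.945), SH2B1 (0.938), MKNK2 (0.913) and RILPL2 (0.91). These points share 4 groups of libraries, and the value is a description. The 9 genes do not share that profile: their own r with it ran from -0.145 for HLA-B to 0.857 for HLA-E.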

How the data were processed

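RNA-seq was done by the authors on total RNA (TruSeq RNA Sample Preparation kit, paired-end, NovaSeq6000). Per the labels and methods, reads were assigned to Ensembl transcripts of hg38 with RSEM 1.2.25. The authors deposited RSEM expected counts, not normalized and fractional since reads that fit several genes are divided, and TPM, which scale by an effective length estimated per library. One library (vehicle, HCT 116 p53-/-, number 2) was deposited per transcript and summed per gene. HLA reads were counted against reference transcripts.

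Expected counts were rounded. Genes were filtered with filterByExpr (15692 of 33990 with any count kept), scaled by TMM (factors 0.847 to 1.15) and fitted for all 12 libraries with 1 coefficient per group. Unless another test is named, an adjusted p comes from edgeR's quasi-likelihood test (edgeR 4.0.16, R 4.3.3), Benjamini-Hochberg adjusted over all genes tested, at 0.05. The study's text names no tool for its own test. DESeq2 1.42.0 was an alternative. The scripts were run on simulated counts in which few genes changed, unlike the comparisons between lines, so that this is no check of those. CPM are per TMM-scaled library. TPM were used to compare genes and for ratios, with exact permutation tests.

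The 9 genes and the lists were chosen with earlier results of these data known. Named from each list were the genes past the threshold with the largest absolute change, at most 2 a comparison, the proteasome subunits PSMB5, PSMB6, PSMB7 and PSMB10, and NLRC5 and IRF1. Some genes of the rule and lists are not reported here. A first motif search over 250 bases used GAANNGAAA (3 of 8 genes, 6.56% of windows), TTCNNNGAA (2 genes, 6.57%) and GGGCGG (5 genes, 42.6%); the IRF letters and the window were changed, the kB letters shortened by 1 base, and the other motifs dropped, after its hits were seen. Replicate numbers came from the sample titles, which the descriptions contradict for the RPL3 KO group with Act D. No 2 libraries of a group agreed within sampling noise. Counts of 3 to 49 for PSMB8 and PSMB9 limit their precision. Gene names matched for 60261 of 60617 identifiers.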

Additional observations from a re-analysis of the deposited data

How the results depend on the processing

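Limits first: p-values rest on 3 libraries a group, and counting error limits PSMB8 and PSMB9. Over the alternatives, no called direction reversed for any of the 9 genes. The counts between lines stayed between 6 and 8 of 9 with vehicle (8, with TAP2, under library size alone) and at 6 or 7 with Act D. For Act D in HCT 116 p53-/- cells the count of 5 fell to 2 with library size alone, with no filter and with effective length as an offset, and ran from 2 to 5 when each library was left out (2 without Act D replicate 1, 3 without Act D replicate 2 or vehicle replicate 3). For Act D in the line labelled RPL3 KO it was 1 with upper quartile scaling, and 0 without any 1 library. The interaction count of 0 was 1 (HLA-E) with DESeq2, with the likelihood-ratio test and with no filter, and ran from 0 to 1 without 1 library (1 without replicate 3 of Act D-treated HCT 116 p53-/- cells, or of either group labelled RPL3 KO). The causes of these moves were not tested.

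The summed heavy chain change with Act D in HCT 116 p53-/- cells (0.32) was 0.22 (adjusted p = 0.183) with library size alone and ran from 0.26 to 0.39 without 1 library, with the call lost without vehicle replicate 1 or 3 or Act D replicate 1 or 2 (adjusted p = 0.0809, 0.0686, 0.0675 and 0.104). Adding HLA-F to the sum or ratio, and the read-through locus to TAP2, alternatives chosen after seeing the data, changed no call. The B2M ratio difference between lines with Act D (2.96) was 2.84 with posterior mean TPM. The PSMB8 to PSMB5 difference with vehicle was 1.69 with posterior mean TPM and 1.57 with a pseudocount of 0.5 TPM.

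Library size alone moved the median of all genes from -0.02 to -0.26 between lines and from 0.02 to -0.08 for Act D in HCT 116 p53-/- cells. It made the split of calls 4202 higher and 6974 lower between lines with vehicle (main 5501 and 5684), 4244 and 6825 with Act D (5503 and 5540), 551 and 2309 for Act D in HCT 116 p53-/- cells (1191 and 1748), and 227 and 1858 in the line labelled RPL3 KO (551 and 1318). Upper quartile scaling gave 944 and 1012 for the last. Over all genes, effective length as an offset gave 1370 calls for Act D in HCT 116 p53-/- cells (main 2939), 947 in the line labelled RPL3 KO (1869) and 282 for the interaction (1025). Leaving out Act D replicate 1 or 2 of HCT 116 p53-/- cells gave 1833 and 1949 there and 630 and 669 for the interaction, and leaving out replicate 1 of the Act D-treated line labelled RPL3 KO gave 614 for the latter.

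The replicate numbers did not pair the samples: deviations of same-numbered libraries correlated at -0.161 to 0.119, and of others at -0.149 to 0.146. With the replicate number as a block, 7, 7, 4, 0 and 0 of the 9 genes passed in the 5 comparisons (7, 7, 5, 0 and 0 without it), and B2M was lost for Act D in HCT 116 p53-/- cells (0.29, adjusted p = 0.0695).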
